A study of Arabidopsis thaliana with 6 samples.

Results

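The CYP705A genes encode cytochrome P450 enzymes, and 4 of them, CYP705A25, CYP705A27, CYP705A13 and CYP705A33, stood among the 531 genes that the authors listed as higher in the mrg1 mrg2 double mutant of Arabidopsis thaliana. The 4 genes were chosen by their names from that list, out of 552 listed genes in all. They were thus selected on the authors' fold change and adjusted p between the genotypes, and that difference is described here without a test. The libraries compared were 3 from the Columbia-0 wild type (Col-0) and 3 from the mrg1 mrg2 mutant in the same ecotype; the labels do not name the mutant alleles. All plants were stratified for 3 days and grew on soil at 22 °C in days of 16 h light and nights of 8 h. Leaves and stems were harvested together 8 h after lights on, when the seedlings were 12 days old. The labels state that the 3 libraries of a genotype came from independent experiments.

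Cytochrome P450 enzymes carry a haem group held by a conserved cysteine and use oxygen to oxidise small molecules. The CYP705A subfamily expanded within the Brassicaceae, and several of its genes lie beside oxidosqualene cyclase genes in clusters that make triterpenes, chiefly in roots. CYP705A5 is a desaturase of the thalianol pathway, CYP705A1 cleaves the triterpene arabidiol, CYP705A12 belongs to the marneral cluster and CYP705A22 was found through a mutant in gravity responses. No such role is given here for the 4 listed genes.

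Only listed genes had values, so total reads per library were not known from the tables; the labels state only a minimum number of reads, each of 50 bp. Size factors recovered from the authors' fold changes lay between 0.955 and 1.08, and a normalized count is the raw count divided by the factor of its library. MRG2, one of the mutated genes, has values here because the authors listed it as lower, with a log2 fold change of -1.61. It had 437, 380 and 403 raw reads in Col-0 replicates 1 to 3 and 188, 111 and 96 in the mutant. Each mutant library was thus below each Col-0 library, and the mutant mean was 0.327 of the Col-0 mean in normalized counts. A mutant label does not by itself call for a lower RNA level. MRG1 was not among the listed genes, so the MRG1 part of the label was not checked. None of 4 leaf markers and none of 6 root markers was listed, so the tissue label was not checked by their levels.

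The 4 genes differed in their coding sequence, and a read-sized stretch shows by how much. The stretch below covers 48 coding bases around the codons for the haem-binding signature, the most conserved part of a P450 gene, read 5′ to 3′ on the coding strand of the TAIR10.1 assembly of RefSeq. Capitals mark the 15 positions at which the 4 genes did not all have the same base.
CYP705A25: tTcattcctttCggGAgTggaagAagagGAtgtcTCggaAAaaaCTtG
CYP705A27: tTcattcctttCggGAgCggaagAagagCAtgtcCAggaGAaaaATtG
CYP705A13: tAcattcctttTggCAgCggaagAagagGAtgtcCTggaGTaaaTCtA
CYP705A33: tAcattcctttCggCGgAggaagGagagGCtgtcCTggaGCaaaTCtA
The stretch lies at chr1:18725698-18725745 in CYP705A25, chr1:18720807-18720854 in CYP705A27, chr2:5934916-5934963 (minus strand) in CYP705A13 and chr3:7346775-7346822 in CYP705A33. CYP705A25 and CYP705A27 differed at 6 of these 48 bases, as did CYP705A13 and CYP705A33. The other pairs differed at 9 to 13 bases.

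CYP705A33 had the most RNA of the 4. This gene (AT3G20960, chromosome 3, 7345261 to 7347210, plus strand) gave 93, 90 and 59 raw reads in Col-0 replicates 1 to 3 and 174, 187 and 174 in mrg1 mrg2 replicates 1 to 3. The mutant libraries were close to each other, while Col-0 replicate 3 lay below the other Col-0 libraries, and the genotypes did not overlap. Normalized counts were 80.7 ± 19.3 in Col-0 and 178 ± 4.19 in the mutant (SD, n = 3 each), a 2.21-fold higher level. In the authors' deposited table the log2 fold change was 1.14, with an adjusted p of 0.000190. The spread between Col-0 libraries was 4.65 times the variance of counting noise, and that between mutant libraries 0.101 times, so that the mutant libraries were closer together than counting noise gives on average. The coefficient of variation was 23.9% in Col-0 and 2.35% in the mutant, where the medians over all 531 higher genes were 19.0% and 14.1%.

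CYP705A27 came next in abundance. This gene (AT1G50520, chromosome 1, 18719378 to 18721219, plus strand) gave 54, 45 and 65 raw reads in Col-0 replicates 1 to 3 and 110, 119 and 89 in the mutant. The highest Col-0 library and the lowest mutant library both carried the number 3, and they stayed apart. Normalized counts were 54.6 ± 9.30 in Col-0 and 106 ± 12.6 in the mutant (SD, n = 3 each), a 1.94-fold higher level. The authors' deposited table gave a log2 fold change of 0.96 and an adjusted p of 0.00787. Among the 4 genes it had the smallest change.

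CYP705A25 was nearly without reads in Col-0. This gene (AT1G50560, chromosome 1, 18724190 to 18726272, plus strand) gave 4, 0 and 1 raw reads in Col-0 replicates 1 to 3 and 20, 30 and 20 in the mutant. Every mutant library held at least 5 times as many reads as the highest Col-0 library. Normalized counts were 1.65 ± 2.06 in Col-0 and 23.1 ± 4.13 in the mutant (SD, n = 3 each), a 14.0-fold higher level. The fold rests on 5 Col-0 reads in all against 70 in the mutant, and counting error alone gives an exact 95% interval of 5.72 to 44.4 for it. Leaving out Col-0 replicate 1, which held 4 of the 5 reads, gave a 46.7-fold difference, resting on 1 read with a counting interval of 8.06 to 1858. Leaving out Col-0 replicate 2, the library with 0 reads, gave 9.35-fold. The authors' deposited table gave a log2 fold change of 3.80 and an adjusted p of 0.000822.

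CYP705A13 was likewise low in Col-0. This gene (AT2G14100, chromosome 2, 5934483 to 5936371, minus strand) gave 3, 1 and 4 raw reads in Col-0 replicates 1 to 3 and 14, 19 and 23 in the mutant. All mutant libraries were above all Col-0 libraries. Normalized counts were 2.65 ± 1.50 in Col-0 and 18.7 ± 4.56 in the mutant (SD, n = 3 each), a 7.04-fold higher level, with an exact 95% counting interval of 3.32 to 17.0. The authors' deposited table gave a log2 fold change of 2.81 and an adjusted p of 0.00881, the largest adjusted p of the 4.

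**Figure D1:**
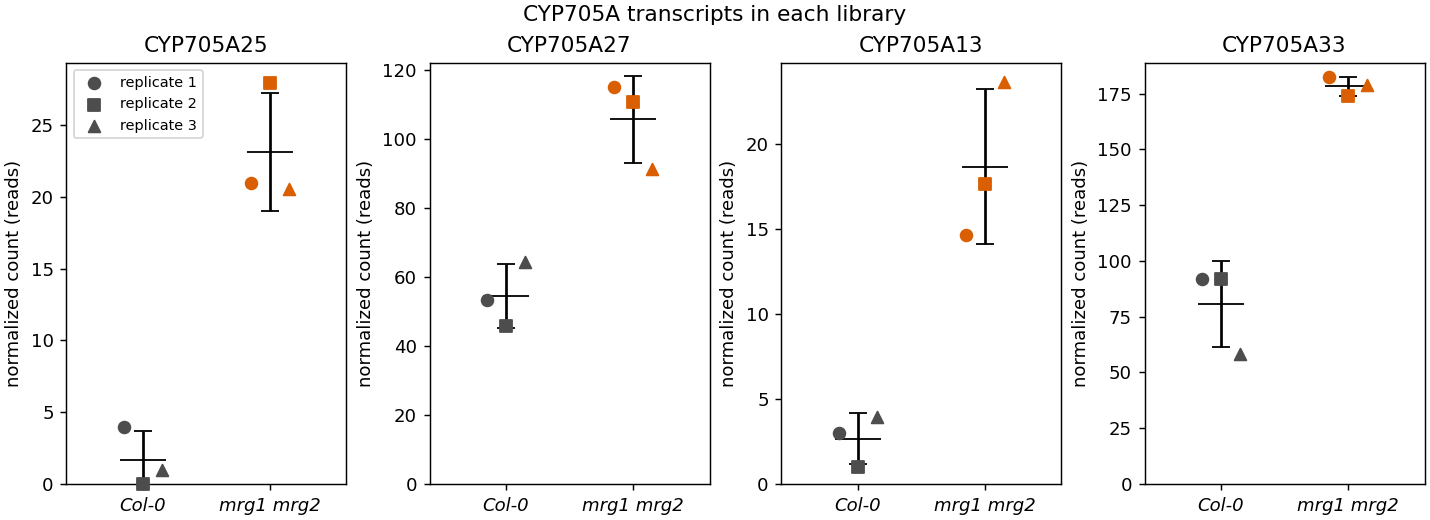
Normalized counts (reads, linear axes from 0, a separate scale for each gene) of the 4 CYP705A genes in each library; symbols give the replicate number, horizontal bars the mean and error bars the SD over 3 libraries. The mutant libraries lie above the Col-0 libraries for each gene, with CYP705A25 going from 1.65 to 23.1 and CYP705A33 from 80.7 to 178 on average.

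The genotypes did not overlap in normalized counts for any of the 4 genes, and neither did they for 99.8% of the 531 higher genes, since all were listed for a difference. The median log2 fold change in the authors' deposited table was 1.98 over the 4 genes and 1.08 over all 531 higher genes. By log2 fold change among the 531, CYP705A25 ranked 17 and CYP705A13 ranked 37, while the more abundant CYP705A33 and CYP705A27 ranked 236 and 324. In the authors' deposited table the median log2 fold change was 2.76 for the 68 higher genes with a Col-0 mean below 10 normalized counts and 1.01 for the rest. That split follows from the choice of genes: one with few Col-0 reads could be listed only through a large fold, and the Col-0 mean is the denominator of the fold. In absolute terms the more abundant genes gained more: the mutant mean exceeded the Col-0 mean by 97.5 normalized counts for CYP705A33, 51.2 for CYP705A27, 21.5 for CYP705A25 and 16.0 for CYP705A13.

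**Figure D2:**
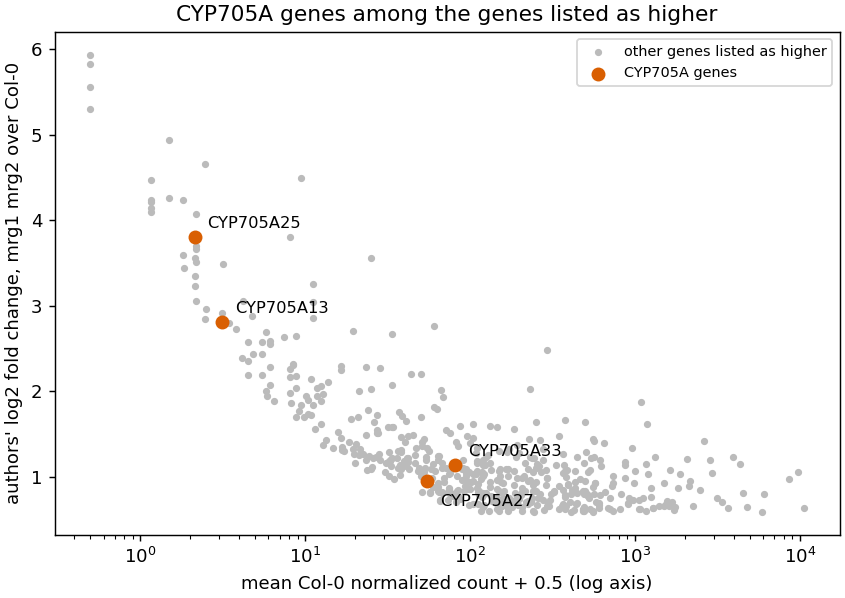
Log2 fold change in the authors' deposited table (vertical axis) against the mean Col-0 normalized count plus 0.5 (horizontal axis, log scale) for the 531 genes listed as higher; each point is a gene and the CYP705A genes are orange. CYP705A25 (3.80) and CYP705A13 (2.81) lie among the genes with few Col-0 reads, and CYP705A33 (1.14) and CYP705A27 (0.96) among those with more.

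Levels can be set side by side per length of exon. In normalized counts per kilobase of annotated exon, CYP705A33 stood at 43.3 ± 10.4 in Col-0, CYP705A27 at 31.1 ± 5.30, CYP705A13 at 1.47 ± 0.828 and CYP705A25 at 0.824 ± 1.03 (SD, n = 3 each). CYP705A33 and CYP705A27 overlapped in Col-0, where replicate 3 gave 31.4 for the former and 36.7 for the latter. CYP705A13 and CYP705A25 overlapped as well. In the mutant the levels per kilobase were 95.7 ± 2.25, 60.3 ± 7.19, 10.3 ± 2.53 and 11.6 ± 2.07 in the same order of genes. There CYP705A33 lay above CYP705A27 in each library, and the ranges of the 2 low genes still overlapped. In these bulk samples, more RNA per cell and more cells with the RNA cannot be told apart.

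Summed over the 4 genes, the genotypes could not overlap, since they did not for any single gene. The sum came to 152, 139 and 128 normalized counts in Col-0 replicates 1 to 3 and to 333, 330 and 314 in the mutant, a 2.33-fold higher level. CYP705A33 supplied 57.8% of the sum in Col-0 and 54.7% in the mutant, and CYP705A27 39.1% and 32.5%. CYP705A25 made up 1.18% in Col-0 and 7.10% in the mutant, and CYP705A13 1.90% and 5.72%.

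Within each replicate number, the mutant library exceeded its Col-0 partner for all 4 genes. Any pairing would give that sign, since the genotypes did not overlap for any of the 4. For CYP705A33 the mutant was 1.98-fold, 1.89-fold and 3.06-fold higher in numbers 1, 2 and 3, the last against the low Col-0 replicate 3. For CYP705A27 the ratios were 2.16, 2.41 and 1.42, with number 3 the smallest. For CYP705A13 they were 4.94 in number 1 (3 Col-0 reads, exact 95% counting interval 1.38 to 26.8), 17.3 in number 2 (1 Col-0 read, interval 2.75 to 720) and 5.96 in number 3. For CYP705A25 they were 5.29 in number 1 and 20.7 in number 3 (1 Col-0 read, interval 3.32 to 860). Number 2 had 0 Col-0 reads, and a floor of 3 reads in that library gave 9.12. The exact 95% counting interval for number 2 began at 6.97 and had no upper limit. The reads in Col-0 were too few to order the numbers for CYP705A13 and CYP705A25.

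**Figure D3:**
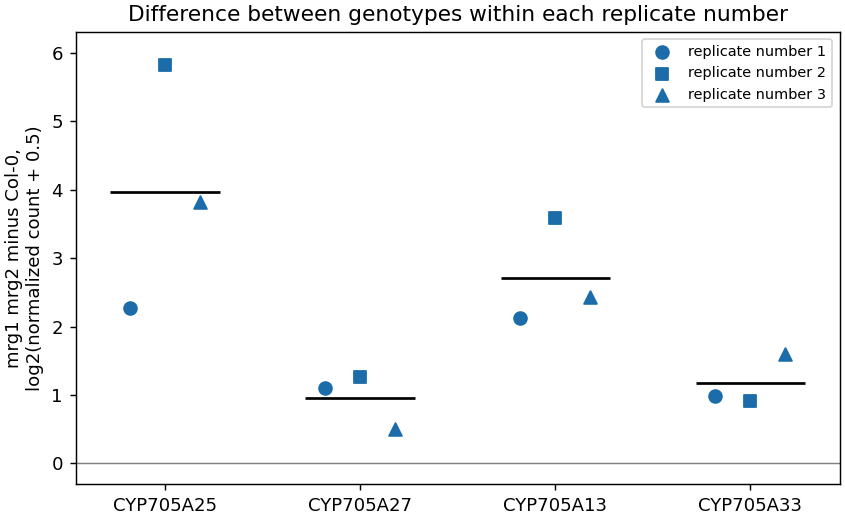
Difference between the mutant and the Col-0 library of the same replicate number, in log2(normalized count + 0.5), for each CYP705A gene; symbols give the number and bars the mean of 3. Each of the 12 differences is above 0, as the lack of overlap between genotypes requires. They run from 0.50 for CYP705A27 in number 3 to 5.83 for CYP705A25 in number 2, which has 0 Col-0 reads.

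The RefSeq annotation held 28 CYP705A loci, 24 of them protein-coding genes and 4 transcribed pseudogenes. The authors listed 4 as higher and 0 as lower, and 20 protein-coding genes were not listed. The authors' list of higher genes held 2.31% of an inferred 22995 genes tested; since the 4 genes were found through that list, nothing is read from the comparison. An unlisted gene has no value here: it may have had too few reads, may not have differed, or may be one of 195 genes that lie within the listed range of adjusted p but are not analysed here. Of all 224 protein-coding genes with a P450 symbol, 14 were listed as higher (6.25%) and 0 as lower, so that 10 higher genes with such a symbol were of other subfamilies. Only 21 genes of the whole series were listed as lower, so nothing is read from the counts of 0 lower genes. P450 genes without a P450 symbol were not counted. The 224 are annotated genes, tested or not, while the 2.31% is a share of tested genes. The 14 also include the 4 genes chosen from the list, so nothing is read from setting 6.25% beside 2.31%. Among the 4 genes, the one nearest to the edge of the list by adjusted p was CYP705A13 at 0.00881 and by fold change CYP705A27 at 0.96, while the list itself reached an adjusted p of 0.0497 and a log2 fold change of 0.59. No CYP705A gene outside the list has a value to set beside these.

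Chromosome 1 held 4 CYP705A loci, of which 2 were listed, chromosome 2 held 4 with 1 listed, and chromosome 3 held 14 with 1 listed. None of the 4 loci on chromosome 4 and the 2 on chromosome 5 was listed; these include CYP705A1, CYP705A5 and CYP705A12, the genes with the triterpene roles named above. The genes that supply and use the triterpene precursor were looked up as well. None of 5 squalene and oxidosqualene synthesis genes was listed, none of 12 oxidosqualene cyclase genes, which fold the precursor into triterpene and sterol skeletons and include THAS1, MRN1 and PEN1, and none of 4 further thalianol and marneral cluster genes. Together 0 of 21 were listed as higher and 0 as lower. With 2.31% of all tested genes listed as higher, 21 genes are too few to tell 0 from that share. Nothing is therefore read from this count, and unlisted genes have no values here.

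CYP705A27 and CYP705A25 are neighbours in a tandem group. They lie on the same strand, with the pseudogene CYP705A26P between them, 678 bp after CYP705A27 and 1288 bp before CYP705A25. CYP705A26P was not listed. CYP705A25 overlaps the antisense RNA gene AT1G07647 by 193 bp and the gene AT1G50570 by 38 bp, both on the opposite strand, and CYP705A27 overlaps AT1G50530 by 8 bp, also on the opposite strand. The library kit keeps strand, but the setting used in counting is not given in the sources used here; none of these 3 genes was listed. On the other side of CYP705A27, AT1G50510 lies 41 bp away and was not listed, and the nearest gene beyond CYP705A25 that does not overlap it is the noncoding AT1G07653 at 1281 bp, also not listed.

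Within 50 kb of CYP705A25, 2 of 33 genes were listed, CYP705A27 and AT1G50630. Of all tested genes 2.31% were listed as higher, and CYP705A27 was itself chosen from the list, so nothing is read from this count. AT1G50630, annotated as a ligand-gated ion channel protein, lies 25.2 kb past CYP705A25 and had a Col-0 level of 380 ± 74.8 and a mutant level of 760 ± 21.1 normalized counts (SD, n = 3 each), with a log2 fold change of 1.00 and an adjusted p of 9.48e-07 in the authors' deposited table. Within 50 kb of CYP705A33, 0 of 35 genes were listed. CYP705A33 is the last of 4 CYP705A genes in a group on chromosome 3. Its neighbour CYP705A32 lies 516 bp away, and CYP705A28, CYP705A30 and CYP705A32 were not listed. On the other side, NFU4, a gene for an iron-sulfur cluster scaffold protein, lies 946 bp away and was not listed either. CYP705A13 had no other CYP705A locus among the 20 genes within 50 kb, and 0 of the 20 were listed. Its neighbours AT2G14095 at 553 bp and AT2G14110 at 15451 bp were both unlisted.

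**Figure D4:**
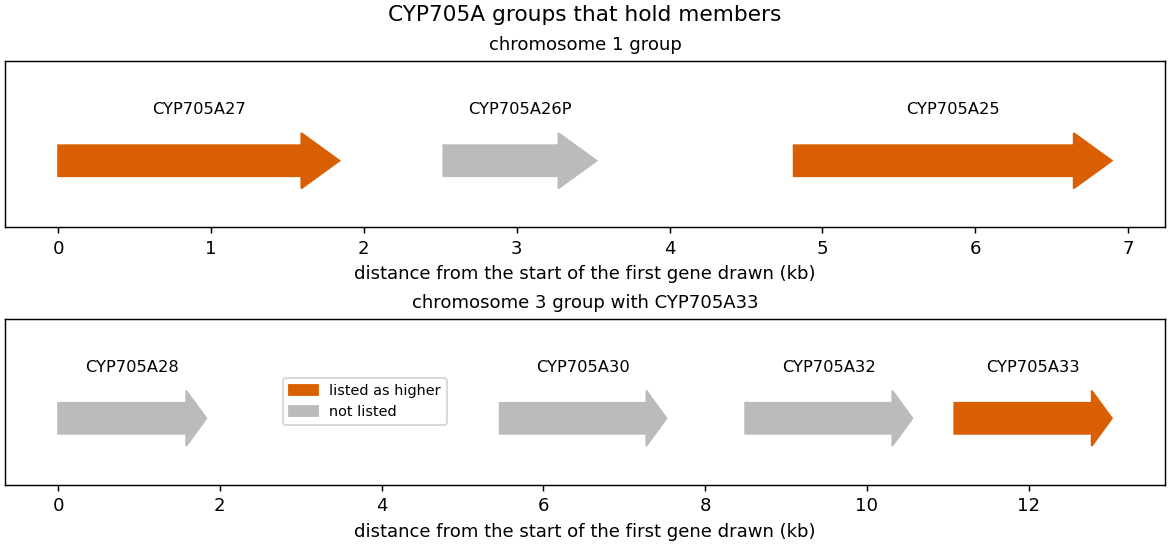
Position and direction of the CYP705A loci in the groups that hold CYP705A27 and CYP705A25 (top) and CYP705A33 (bottom), as distance in kb from the start of the first gene drawn; orange marks genes listed as higher and grey genes not listed. In the top group 2 of 3 loci are orange, and in the bottom group 1 of 4.

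The closest coding relative was itself a listed gene for the tandem pair and an unlisted gene for CYP705A13 and CYP705A33. CYP705A25 and CYP705A27 shared 89.3% of 1557 aligned coding bases and were each other's closest relatives among the 24 coding genes. CYP705A33 was closest to CYP705A18, at 85.7%, and CYP705A13 was equally close, at 77.5%, to CYP705A21 and CYP705A22. The 6 pairs among the 4 genes ran from 69.1% to 89.3% with a median of 70.1%, and the 276 pairs of all 24 coding genes from 62.7% to 91.0% with a median of 74.8%. CYP705A13 and CYP705A33, which differed at only 6 bases around the haem-binding signature, shared 75.2% over the whole coding sequence. Each of the 4 genes had 2 exons after transcript variants were merged, with 1754 to 2001 exon bases.

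**Figure D5:**
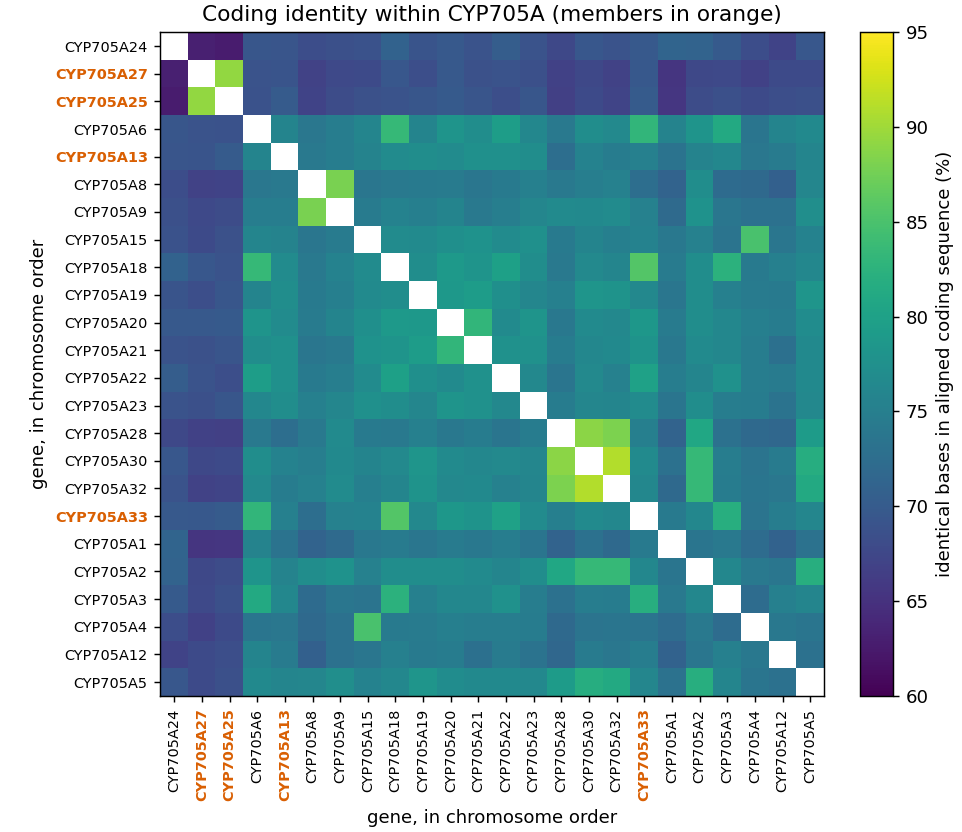
Share of identical bases in the aligned coding sequences of 24 CYP705A genes (colour scale in percent), in chromosome order on both axes; labels of the 4 listed genes are orange. CYP705A25 and CYP705A27 form a bright pair at 89.3%, while CYP705A13 has no relative above 77.5%.

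The close copies bear on how reads were assigned. Of all 50-base windows within the exons, the length of a read, 42.4% of those of CYP705A25 matched another place in the genome with at most 2 mismatches, against 22.2% for CYP705A27, 16.3% for CYP705A13 and 5.10% for CYP705A33. Windows with an exact second copy made up 13.7% for CYP705A25, 0% for CYP705A27, 2.28% for CYP705A13 and 0.283% for CYP705A33. All 261 exactly shared windows of CYP705A25 lay in the pseudogene CYP705A26P, so the small counts of CYP705A25 are uncertain where reads from CYP705A26P could be given to it. CYP705A25 and CYP705A27 shared 293 windows at up to 2 mismatches and 0 exactly, and CYP705A25 made up 2.93% of the joint normalized counts of both in Col-0 and 17.9% in the mutant. For CYP705A13, 39 windows matched exactly within AT3G32047, annotated as a P450 superfamily protein and not listed. How the authors treated reads with more than 1 match is not given in the sources used here, and the part of such reads in the differences was not tested.

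The regions upstream of the tandem genes were compared because both genes were listed. The sequences below are the 250 bases before the annotated start of each gene, at chr1:18723940-18724189 for CYP705A25 and chr1:18719128-18719377 for CYP705A27, on the plus strand of TAIR10.1. The CYP705A27 window is not all intergenic, since AT1G50510 lies only 41 bp before that gene and the window reaches into it. The shared runs of CYP705A27 are farther upstream than those 41 bp, so they fall within the annotated AT1G50510 and not between the genes. Capitals mark bases within runs of 12 or more bases that also occur in the other sequence. Runs that overlap are joined in capitals. The longer capital stretch of CYP705A27 joins overlapping runs that lie apart in CYP705A25, so it does not occur there as a whole.
CYP705A25: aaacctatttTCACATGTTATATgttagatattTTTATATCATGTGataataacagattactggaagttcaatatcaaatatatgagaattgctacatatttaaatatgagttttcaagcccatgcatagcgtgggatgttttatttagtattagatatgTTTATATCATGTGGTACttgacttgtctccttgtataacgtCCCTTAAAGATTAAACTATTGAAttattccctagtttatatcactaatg
CYP705A27: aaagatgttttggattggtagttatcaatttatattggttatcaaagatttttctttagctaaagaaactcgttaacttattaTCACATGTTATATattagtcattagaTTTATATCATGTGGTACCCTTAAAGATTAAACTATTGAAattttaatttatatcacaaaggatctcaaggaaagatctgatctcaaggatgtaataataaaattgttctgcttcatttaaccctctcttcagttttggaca
The longest run shared by both was 23 bases, and shared runs covered 66 bases of the CYP705A25 and 52 bases of the CYP705A27 sequence. Between any other pair of the 4 genes the longest shared run was 7 to 9 bases. The core of the W-box, TTGAC, the element bound by WRKY factors, was present on either strand in the same window of 3 of the 4 genes, all but CYP705A27, and in 44.9% of the windows of all 27443 protein-coding genes. The G-box, CACGTG, was in none of the 4 and in 6.49% of all windows. These matches describe letters only.

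The genes most like CYP705A27 and CYP705A33 over the 6 libraries were sought among 496 other listed genes with a mean of at least 20 normalized counts; CYP705A25 and CYP705A13 were below that level. For CYP705A27, the highest Pearson correlations of log2(normalized count + 1) were with AT1G70260, a WAT1-related protein gene (r = 0.99), and SUGTL5, a sugar transporter gene of the ERD6-like group (r = 0.98). For CYP705A33 they were with ADT5, which encodes an arogenate dehydratase of phenylalanine synthesis (r = 0.99), and AT1G58400, a putative disease resistance gene (r = 0.99). Listed genes share the genotype difference and the libraries, and the median r over all higher genes compared was already 0.86 for CYP705A27 and 0.90 for CYP705A33. After the genotype means were subtracted, r was 0.92 and 0.84 for the partners of CYP705A27 and 0.98 and 0.99 for those of CYP705A33. The partners were picked among 496 genes for their r over these same 6 libraries, which favours high values here too. No median of this second r over other genes is given, so nothing is read from it. The level of AT1G70260 was 48.6 ± 7.03 normalized counts in Col-0 against 102 ± 19.9 in the mutant, and that of ADT5 707 ± 122 against 1087 ± 9.87 (SD, n = 3 each).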

How the data were processed

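Stranded, ribosomal RNA-depleted libraries were read as 50 bp single ends, per the labels' protocols. TAIR10 and DESeq2 are named in the submitters' processing notes. The authors deposited raw counts per gene and library for listed genes only, with the p-value, adjusted p-value and log2 fold change (mutant over wild type) of their own comparison, per the file headers. Which aligner and read counter made the counts is not given in the sources used here. Size factors were fitted so that the ratio of mean normalized counts met the authors' log2 fold change, over 540 genes with at least 50 counts over the 6 libraries (residual SD 0.00186 in log2 units; 0.00930 if all factors were equal). On simulated counts, with fold changes made by the same formula that the fit inverts, it returned the factors within 0.0473%. That checks the fitting step only and not the accuracy of the factors of the real libraries. The number of genes tested, 22995, was inferred from the ratio of p-value to adjusted p-value under the Benjamini-Hochberg procedure.

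No test between genotypes was made: the 4 genes were chosen by that difference, and 3 libraries against 3 cannot give a two-sided permutation p below 0.1. Counting intervals (95%, exact binomial on the reads) and the floor of 3 reads cover counting error only. Libraries of a genotype differed by 12.8 to 38.3 times counting noise, so none was a repeat. Deviations from genotype means correlated by 0.364, 0.440 and 0.331 for libraries of the same number and by -0.353 to 0.0230 for others (498 genes), so same-numbered libraries were treated as pairs, a choice that comes from these correlations and not from the labels.

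Gene models and sequences are from RefSeq (TAIR10.1), matched by locus code; all 4 genes matched, and positions are those of TAIR10.1, as the tables hold none. Windows were searched with bwa 0.7.19, and coding sequences aligned with mafft 7.526. Other genes were named by a rule: listed relatives and triterpene genes, the 2 most similar listed genes, and nearest neighbours. The 4 genes and the gene lists were chosen with earlier results of these data known.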

Additional observations from a re-analysis of the deposited data

How the results depend on the processing

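The genotypes do not overlap for any of the 4 genes, so the sign of the log2 difference could not change when a library was left out. Over all alternatives the difference moved, with 1 exception, by less than the pooled SD between libraries of a genotype. The exception was CYP705A25 without Col-0 replicate 1, at 5.55 against 3.81. With each library left out in turn, the value ranged from 3.23 to 5.55 for CYP705A25, from 2.43 to 3.23 for CYP705A13, from 0.84 to 1.09 for CYP705A27 and from 0.96 to 1.25 for CYP705A33. With replicate number as a block, the mean within-number difference was 3.97 for CYP705A25, 2.71 for CYP705A13, 0.95 for CYP705A27 and 1.17 for CYP705A33, with SDs of 1.78, 0.76, 0.40 and 0.38 between the 3 numbers. In this balanced design the block leaves the mean of the log2 values as it is, so it bears only on their spread. Equal size factors and factors from genes with at least 10 counts moved no value by more than the SD between libraries. The authors' own fold changes are no independent alternative, since the size factors were fitted to them. Depth limits CYP705A25 and CYP705A13, with 5 and 8 Col-0 reads in all, more than CYP705A27 and CYP705A33, with 164 and 242.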
